A study of Homo sapiens with 12 samples.

Results

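Keratins of simple and hair-type epithelium were examined in a mesenchymal-like liver cancer cell line. The list has 9 members, chosen by gene name with earlier results of these data in view, namely KRT7, KRT8, KRT10, KRT17, KRT18, KRT19, KRT80, KRT81 and KRT86. Of these, 7 were among the 15601 genes of the deposited tables over all 12 libraries, and KRT17 and KRT19 were listed in none of the 8 tables. KRT86 was listed in 7 of the 8 tables and was missing from the table that compares SNU449 control cells with Rego-resistant SNU449-Axl-KO cells. KRT10 belongs by its usual site to the suprabasal epidermis and not to simple or hair-type epithelium, but is kept here as a member of the list.

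RNA-Seq was performed on SNU449, a human hepatocellular carcinoma line, and on SNU449-Axl-KO, its derivative in which the receptor tyrosine kinase Axl was deleted by CRISPR/Cas9. Both were sequenced as naïve control cells (SNU449-ctrl and SNU449-Axl-KO-ctrl) and after adaptation to rising doses of the kinase inhibitor Regorafenib (SNU449-Rego and SNU449-Axl-KO-Rego). Each of the 4 groups has 3 libraries, which the records describe as technical triplicates. Each group is thus 1 cell population, so that differences between conditions and differences between populations cannot be told apart, and p-values measure the spread between libraries only. How the edited line was selected, as 1 clone or as a pool, is not given in the sources used here.

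Keratins are the intermediate filament proteins of epithelial cells. A filament is built from pairs of 1 type I and 1 type II chain, and KRT8 with KRT18 is the pair of hepatocytes and other simple epithelia. KRT7 is a type II keratin of ducts and glands and KRT19 a type I keratin of ducts, KRT80 is a type II keratin of stratified epithelia, KRT81 and KRT86 are type II keratins of the hair cortex, KRT17 is a type I keratin of skin appendages, and KRT10 is a type I keratin of the upper epidermis. Mesenchymal cells build their filaments mainly from vimentin.

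The type II members and KRT18 lie in 1 gene cluster on chromosome 12 (GRCh38, positions as deposited). KRT80 lies at chr12:52168996-52192014 on the minus strand, KRT7 at chr12:52232520-52252186 on the plus strand, KRT86 at chr12:52249300-52309163 on the plus strand and KRT81 at chr12:52285913-52291534 on the minus strand. KRT8 at chr12:52897187-52949954 on the minus strand and KRT18 at chr12:52948871-52952906 on the plus strand follow farther along, and KRT10 lies at chr17:40818117-40822614 on the minus strand. The span of KRT86 overlaps the end of KRT7 and all of KRT81, but in GENCODE release 44 no exon of KRT86 shares a base with an exon of KRT7 or KRT81. Exons on opposite strands overlap by 525 bases between KRT8 and KRT18, by 282 bases between KRT7 and KRT7-AS and by 61 bases between KRT10 and KRT10-AS1. KRT86 shares 221 exonic bases with ENSG00000287051 on the opposite strand. Whether reads were counted by strand is not given in the sources used here, and without strand the reads of such partners cannot be told apart. KRT86 also shares 126 exonic bases with ENSG00000285102 on the same strand, where strand cannot tell the reads apart.

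KRT81 and KRT86 are near-copies, and their sequences are shown because both were higher outside SNU449 control cells and reads could in principle be assigned to the wrong gene. Their coding sequences are 94.2% identical over 1457 aligned bases. The lines below give 90 coding bases, positions 1239 to 1328 of each coding sequence counted from the start codon, in GENCODE release 44 transcripts on GRCh38. The stretch lies in 3 exons of KRT81 within chr12:52286445-52287110 on the minus strand and in 3 exons of KRT86 within chr12:52306272-52308452 on the plus strand. Capitals mark the 19 bases that differ between the genes. The stretch is the last run of 90 aligned bases without a gap, and it differs more than the coding sequences do as a whole.
KRT81: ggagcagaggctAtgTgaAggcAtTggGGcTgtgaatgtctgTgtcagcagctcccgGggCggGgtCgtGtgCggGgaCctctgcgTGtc
KRT86: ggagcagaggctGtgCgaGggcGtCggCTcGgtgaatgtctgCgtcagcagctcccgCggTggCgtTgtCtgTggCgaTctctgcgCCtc
QuantSeq reads start near the 3′ end of an mRNA, so the ends of the transcripts were searched for shared stretches. None of the 401 windows of 100 bases in the last 500 bases of the KRT81 or KRT86 transcript occurred in a transcript of another gene, and the same held for KRT7, KRT10, KRT18 and KRT80. For KRT8, 5 of 401 windows (1.25%) also occurred in the pseudogene KRT8P3. Only exact matches of 100 bases were sought. The search therefore cannot show that shorter reads, or reads aligned with mismatches, were assigned to the right gene.

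The value of a library is a whole number, read from the methods and the values as 2 raised to a variance-stabilized and batch-corrected level, since the headers do not describe it. It was not taken as a count, it had a minimum of 12 in the table used, and differences of weakly expressed genes are therefore smaller on this scale than in reads. KRT7 had library values of 37, 27 and 18 in SNU449-ctrl. In SNU449-Rego the values were 695, 354 and 897, in SNU449-Axl-KO-ctrl 181, 820 and 303, and in SNU449-Axl-KO-Rego 636, 377 and 617. All 9 libraries outside SNU449-ctrl were above the 3 libraries of that group, and the other groups overlapped one another.

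KRT81 showed the same order of groups at its lower end. Its library values were 50, 55 and 21 in SNU449-ctrl and 976, 690 and 1848 in SNU449-Rego. In SNU449-Axl-KO cells they were 754, 1449 and 1109 in the control and 1470, 980 and 1242 in the resistant group. Again SNU449-ctrl stood apart from all other libraries, which overlapped. The mean level was 5.31 ± 0.742 on the log2(value + 1) scale (SD, n = 3) in SNU449-ctrl against 10.1 ± 0.72, 10.1 ± 0.473 and 10.2 ± 0.294 in the other groups.

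KRT80 was graded rather than split. Its library values were 178, 130 and 53 in SNU449-ctrl, 146, 384 and 278 in SNU449-Axl-KO-ctrl, 379, 220 and 515 in SNU449-Axl-KO-Rego and 537, 481 and 693 in SNU449-Rego. The control groups overlapped each other, as did both SNU449-Axl-KO groups and both resistant groups, while the SNU449-Rego libraries were all above those of both control groups. In SNU449-ctrl, replicate 3 was the lowest library for KRT7, KRT81 and KRT80 alike, and replicate 3 of SNU449-Rego was the highest for all 3 genes.

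KRT86 was close to the minimum of the scale. Its library values were 21, 19 and 24 in SNU449-ctrl, 32, 40 and 40 in SNU449-Rego, 50, 46 and 62 in SNU449-Axl-KO-ctrl and 40, 39 and 24 in SNU449-Axl-KO-Rego. SNU449-Axl-KO-ctrl was above every other group, and replicate 3 of SNU449-Axl-KO-Rego was level with the highest SNU449-ctrl library.

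The hepatocyte pair KRT8 and KRT18 was present in all libraries. The library values of KRT8 were 159, 140 and 216 in SNU449-ctrl and 133, 208 and 140 in SNU449-Rego. They were 320, 284 and 276 in SNU449-Axl-KO-ctrl and 542, 444 and 439 in SNU449-Axl-KO-Rego. KRT8 thus followed Axl status, with every SNU449-Axl-KO library above every SNU449 library. KRT18 ranged from 667 to 1592 over the 12 libraries and KRT10 from 388 to 730. The group means of KRT18 lay between 9.77 ± 0.365 and 10.3 ± 0.307 on the log2 scale (SD, n = 3), and those of KRT10 between 8.90 ± 0.238 and 9.45 ± 0.0641.

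**Figure D1:**
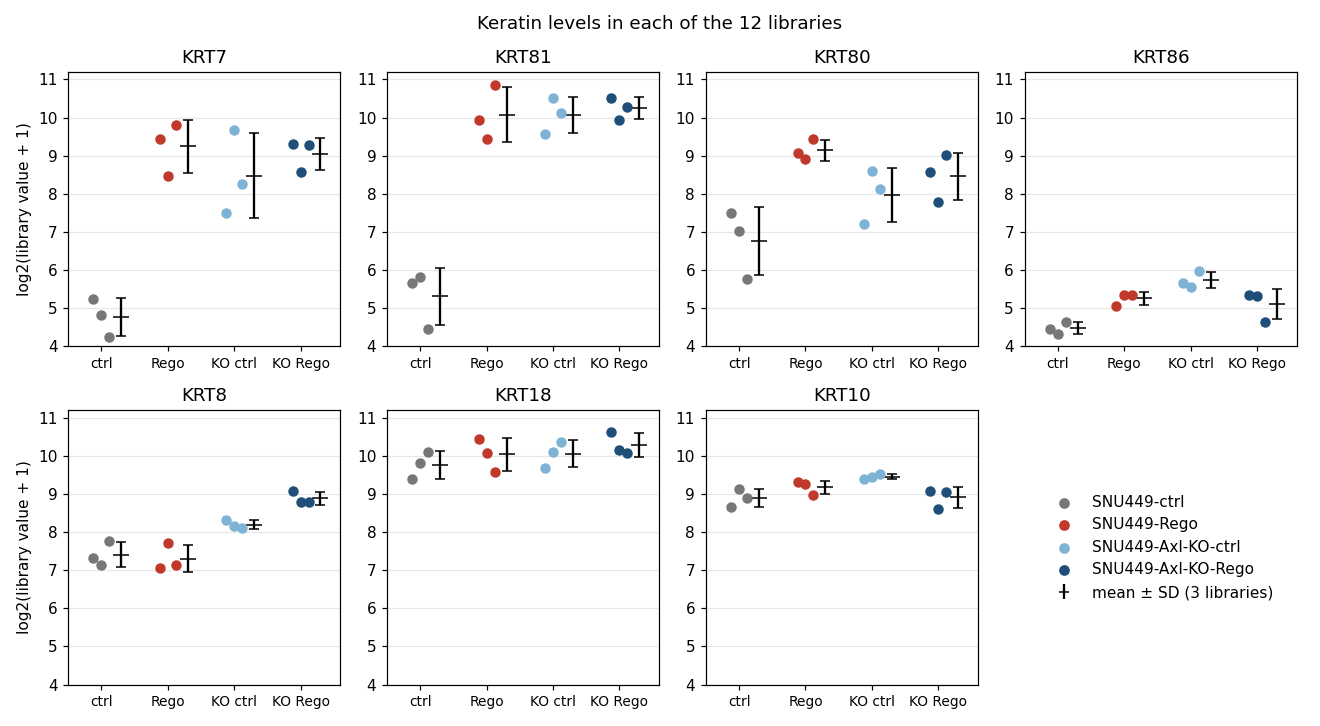
Levels of the 7 listed keratins in each of the 12 libraries, as log2(library value + 1) by group (ctrl and Rego are SNU449, KO ctrl and KO Rego are SNU449-Axl-KO); coloured points are libraries and black bars the mean ± SD of 3 libraries. KRT7 and KRT81 are low only in SNU449-ctrl among the 4 groups, KRT80 is graded, and KRT8 is higher in both SNU449-Axl-KO groups.

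Levels on a linear scale were obtained from the authors' mean normalized counts, which each table of a pair of groups gives over both groups. Solving these means for the 4 groups, with no value below 0, left a median error of 0.408% over the 12901 genes in all 6 tables. KRT81 came out at 0 normalized counts in SNU449-ctrl, 1055 in SNU449-Rego, 1269 in SNU449-Axl-KO-ctrl and 1341 in SNU449-Axl-KO-Rego, with a mean error of 16.2 counts. KRT7 came out at 0, 644, 481 and 612 in the same order, with a mean error of 6.02 counts. Levels in SNU449-ctrl below these errors cannot be resolved, and both genes were listed through the other groups.

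On the same scale KRT80 had 78.4, 537, 292 and 409 normalized counts in SNU449-ctrl, SNU449-Rego, SNU449-Axl-KO-ctrl and SNU449-Axl-KO-Rego, and KRT86 had 0.42, 8.03, 24.1 and 11. KRT86 was thus far below its near-copy KRT81 in the 3 groups with KRT81. KRT8 had 151, 122, 307 and 509, KRT18 847, 972, 1149 and 1435, and KRT10 451, 506, 733 and 552. Since 3′-end libraries give about 1 read per transcript, these counts are not divided by gene length. These solved means carry no replicate error.

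**Figure D2:**
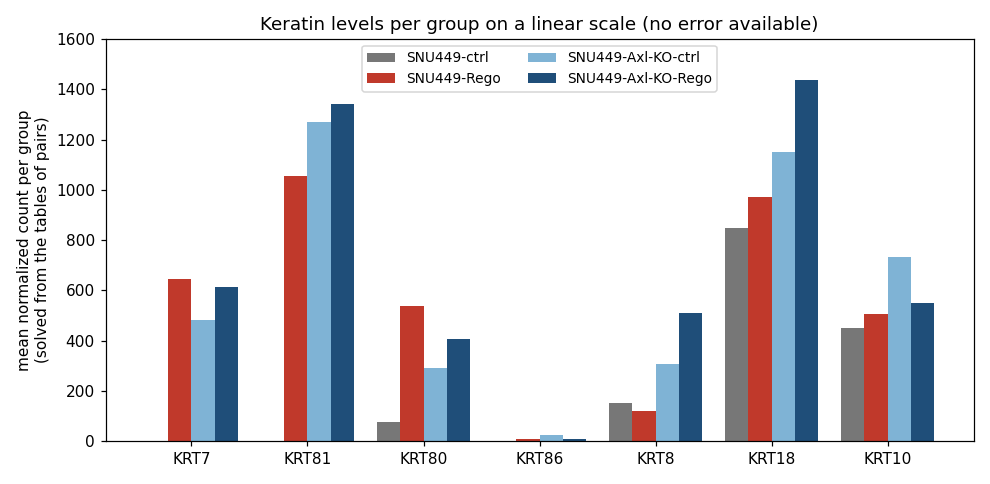
Mean normalized count of each keratin per group, solved from the authors' means in the tables of pairs of groups; the linear axis starts at 0 and no replicate error is available. KRT7 and KRT81 have no bar in SNU449-ctrl because they came out at 0, and KRT86 stays at or below 24.1 in all groups.

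As a check of the groups, AXL had library values of 715 to 941 in SNU449-ctrl and 815 to 1271 in SNU449-Rego, against 33 to 53 in SNU449-Axl-KO-ctrl and 38 to 52 in SNU449-Axl-KO-Rego. Differences were fitted with limma to log2(value + 1), with the replicate number as a block in place of the preparation date, which is not given per library, and a gene was called where its p, adjusted by the method of Benjamini and Hochberg over all 15601 genes, was under 0.05. AXL differed by -4.29 (SE 0.235, adjusted p = 2.16e-09) between control cells and by -4.52 (SE 0.235, adjusted p = 1.27e-09) between resistant cells. The 4 comparisons share groups pairwise and are not independent of one another.

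The first comparison asked which keratins differed between Rego-resistant and control SNU449 cells. KRT81 and KRT7 entered the list because of their rise in this comparison, so that their values are a description without a test. KRT81 was higher by 4.76 on the log2 scale (95% interval 4.01 to 5.51) and KRT7 by 4.47 (95% interval 3.57 to 5.38) in SNU449-Rego. Of the other 5 listed members, 2 were called, both higher, beside 7.81% of all genes called and 4.31% called higher. The whole list was chosen with earlier results of these data in view. No count of called members beside a share of all genes is therefore a test of the list. KRT80 rose by 2.38 (SE 0.397, 5.22-fold, adjusted p = 0.000819). The difference of KRT80 was 1.71 (adjusted p = 0.0038) without SNU449-ctrl replicate 3 and at most 2.87 without any other library. With robust variance moderation its SE was 0.574 and its adjusted p 0.0498, just under the threshold. KRT86 rose by 0.78 (SE 0.215, 1.71-fold, adjusted p = 0.0318).

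The simple-epithelial pair did not follow. KRT8 differed by -0.10 (95% interval -0.56 to 0.36), KRT18 by 0.27 (95% interval -0.27 to 0.81) and KRT10 by 0.27 (95% interval -0.14 to 0.69) between these groups, and none of them passed the test. KRT86 had 0.42 solved normalized counts in SNU449-ctrl and was listed mainly through the other groups, which limits its call. The call of KRT86 did not hold in the table of this pair of groups (0.55, adjusted p = 0.0575). It was also lost without SNU449-ctrl replicate 1 (adjusted p = 0.0853) or 2 (0.156) and without SNU449-Rego replicate 2 (0.131) or 3 (0.126).

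In SNU449-Axl-KO cells, limma called no listed member between resistant and control cells, where 4.35% of all genes were called. At an unadjusted p under 0.05 there were 3 of 7, against 18.6% of all genes. KRT8 was higher by 0.69 in the resistant cells (SE 0.218, adjusted p = 0.0824), KRT86 lower with a difference of -0.63 (SE 0.215, adjusted p = 0.11) and KRT10 lower with a difference of -0.54 (SE 0.198, adjusted p = 0.139). The libraries of the groups did not overlap for these 3 genes, which was the case for 29.1% of all genes. Without the replicate block, KRT8 (adjusted p = 0.0324) and KRT86 (adjusted p = 0.0475) were called, beside 9.95% of all genes. KRT8 was also called without SNU449-ctrl replicate 3 (adjusted p = 0.0469), a library that enters only the shared estimate of the spread and of the block. KRT81 differed by 0.19 (95% interval -0.57 to 0.94), KRT7 by 0.57 (95% interval -0.33 to 1.47) and KRT80 by 0.49 (95% interval -0.35 to 1.32).

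The third comparison asked which keratins differed between control cells with and without Axl. KRT81 and KRT7 were chosen for a difference from the SNU449-ctrl libraries that are used again here, and were listed through the other groups, so that their values are again a description without a test. KRT81 was higher by 4.75 in SNU449-Axl-KO-ctrl (95% interval 3.99 to 5.50) and KRT7 by 3.71 (95% interval 2.81 to 4.61). The value of KRT7 was 2.91 without SNU449-Axl-KO-ctrl replicate 2 and 4.35 without replicate 1 of that group, and that of KRT81 was 4.17 without SNU449-ctrl replicate 3.

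Of the other 5 listed members, 2 were called, both higher in SNU449-Axl-KO-ctrl, where 7.45% of all genes were called and 4.03% called higher. Again this count is no test of a list chosen with earlier results in view. KRT86 rose by 1.26 (SE 0.215, 2.39-fold, adjusted p = 0.00132) and KRT8 by 0.79 (SE 0.218, 1.73-fold, adjusted p = 0.0332). KRT86, with 0.42 solved normalized counts in SNU449-ctrl, was also listed mainly through the other groups, and its calls in comparisons with that group are read with this limit.

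KRT80 was higher by 1.21 in SNU449-Axl-KO-ctrl (95% interval 0.38 to 2.05, adjusted p = 0.0714), KRT10 by 0.54 (adjusted p = 0.106) and KRT18 by 0.28 (adjusted p = 0.593), none of which passed the test. KRT80 was called without SNU449-ctrl replicate 1 (1.70, adjusted p = 0.0235) and without SNU449-Axl-KO-ctrl replicate 1 (1.73, adjusted p = 0.0115), but was at 0.54 (adjusted p = 0.39) without SNU449-ctrl replicate 3, at 0.80 (adjusted p = 0.377) without SNU449-Axl-KO-ctrl replicate 2 and had an adjusted p of 0.281 with robust variance moderation. KRT10 was called without the replicate block (adjusted p = 0.0383), where 14% of all genes were called. The call of KRT8 was lost in the table of this pair (adjusted p = 0.0708), without SNU449-ctrl replicate 1 (0.123) or 2 (0.181) and without SNU449-Axl-KO-ctrl replicate 1 (0.119), 2 (0.103) or 3 (0.0644).

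Between the resistant groups, KRT8 was the 1 listed member of 7 that was called, where 4.37% of all genes were called and 2.44% called higher. It rose by 1.58 in SNU449-Axl-KO-Rego (SE 0.218, 3.0-fold, adjusted p = 0.000248). KRT8 kept this call under every alternative run, with differences between 1.42 and 1.85 when 1 library was left out. Its usual partner KRT18 differed by 0.25 (95% interval -0.29 to 0.79, adjusted p = 0.682). KRT81 differed by 0.17 (95% interval -0.58 to 0.93), KRT7 by -0.19 (95% interval -1.09 to 0.71), KRT86 by -0.15 (95% interval -0.60 to 0.31) and KRT10 by -0.27 (95% interval -0.68 to 0.15). KRT80 was at -0.68 (adjusted p = 0.387), and was called in the table of this pair of groups alone (-0.58, adjusted p = 0.0245), beside 8.19% of all genes.

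**Figure D3:**
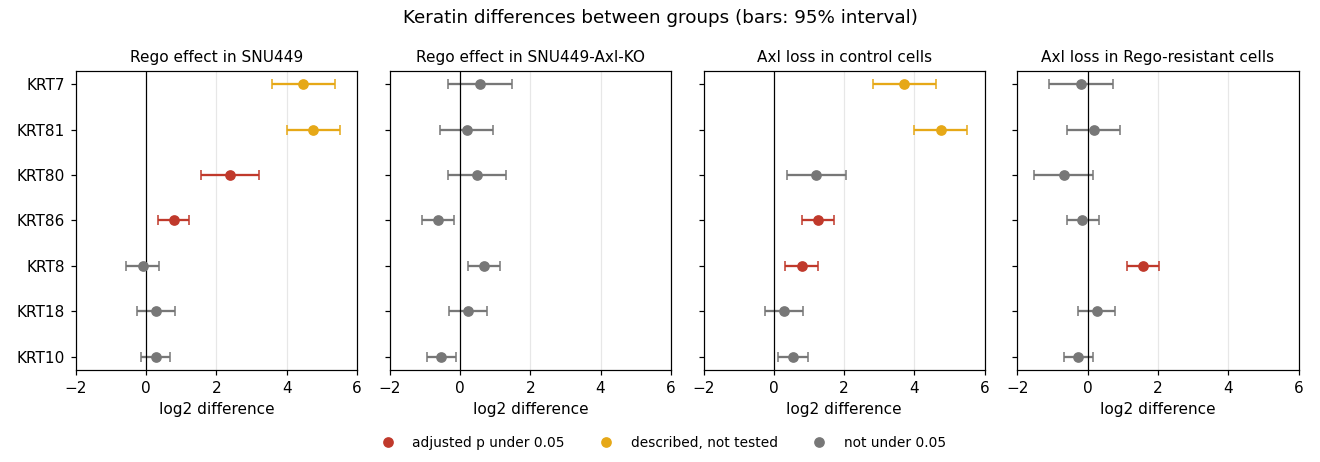
Log2 differences of the 7 listed keratins in the comparisons between resistant and control cells and between cells without and with Axl; points are limma estimates on log2(value + 1) and bars their 95% intervals. KRT7 and KRT81 lie above 3 in the first and the third panel and within 1 of 0 in the others, and KRT8 is called in both comparisons of Axl status.

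Whether the difference between resistant and control cells depended on the background was tested as an interaction term, given as SNU449-Axl-KO minus SNU449. Of 5 listed members tested, KRT86 was called (-1.41, SE 0.304, adjusted p = 0.00948), where 5.87% of all genes were called and 2.95% called lower. KRT86 was higher in resistant cells of SNU449 and had a lower mean in resistant cells of SNU449-Axl-KO. Since it was listed mainly through groups other than SNU449-ctrl, this call is read with the same limit. KRT80 had an interaction of -1.90 (95% interval -3.08 to -0.72, adjusted p = 0.0536), KRT10 of -0.81 (adjusted p = 0.101), KRT8 of 0.79 (adjusted p = 0.15) and KRT18 of -0.03 (adjusted p = 0.979). Without the replicate block 3 were called, with KRT80 (adjusted p = 0.0406) and KRT10 (adjusted p = 0.0347) added, beside 11.7% of all genes. KRT80 was also called without SNU449-ctrl replicate 1 (adjusted p = 0.0171), SNU449-Axl-KO-ctrl replicate 1 (0.00915) or SNU449-Axl-KO-Rego replicate 3 (0.0317). Its interaction shrank to -1.23 (adjusted p = 0.118) without SNU449-ctrl replicate 3, and its adjusted p was 0.26 with robust variance moderation. For KRT81 and KRT7, which were chosen on the first comparison, the interaction is a description, with -4.57 (95% interval -5.64 to -3.51) and -3.90 (95% interval -5.18 to -2.63).

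Over the 12 libraries, KRT7 and KRT81 had a Pearson correlation of 0.973 on the log2 scale. KRT80 correlated with KRT7 at 0.889 and with KRT81 at 0.823, KRT86 with KRT81 at 0.726, and the partners KRT8 and KRT18 with each other at 0.46. The 12 libraries form 4 groups, so that these values mostly describe the differences between groups. The genes outside the list with the most similar profile were GRB2 (0.985), MSI2 (0.976) and GSK3B (0.97) for KRT7, and MSI2 (0.98), GRB2 (0.975) and SRGAP1 (0.964) for KRT81. For KRT80 they were CACNG4 (0.936), LRP3 (0.935) and ADCY7 (0.93), for KRT8 RN7SL37P (0.959), FGFR1 (0.948) and LSR (0.944), and for KRT86 PCCB (0.964), ZRSR2 (0.963) and SPIRE2 (0.943).

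The genes around the chromosome 12 keratins were compared with them by their values. Within 1 Mb of these keratins, 37 other genes were tested, with a median difference of -0.05 between SNU449-Rego and SNU449-ctrl and a range from -1.79 to 0.47. None of them was called higher and 2 were called lower, namely GALNT6 (-1.79) and SLC4A8 (-0.55), a share near the 7.81% called over all genes. Between the control groups, the range was -0.87 to 0.93 around a median of 0.00, and 1 gene was called higher, HOXC13 (0.93), and 2 lower, GALNT6 (-0.87) and SLC4A8 (-0.55), again near the 7.45% over all genes. These neighbours were named after their values were seen.

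**Figure D4:**
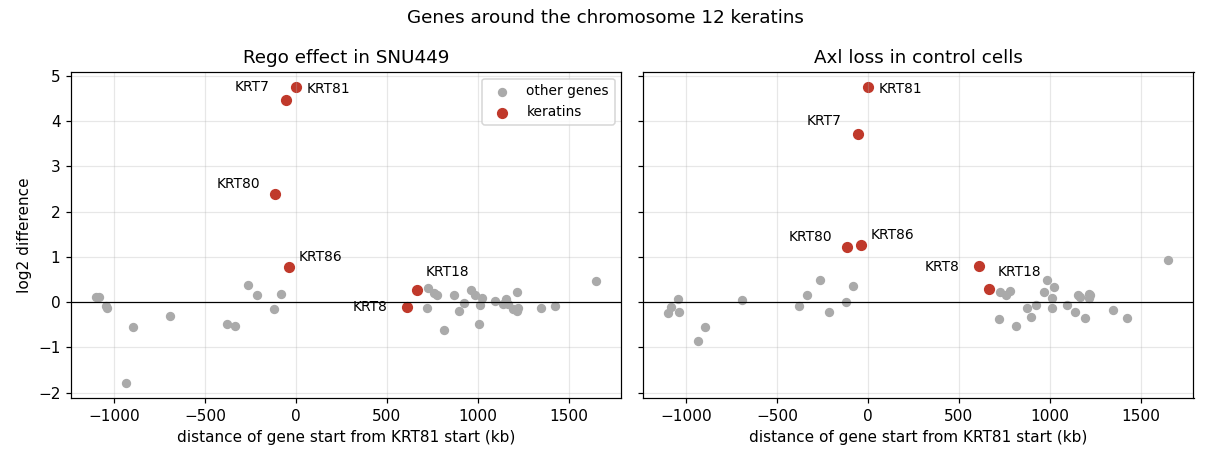
Log2 difference of the genes around the chromosome 12 keratins against the distance of the gene start from that of KRT81 in kb, for Rego-resistant against control SNU449 cells (left) and for SNU449-Axl-KO-ctrl against SNU449-ctrl (right); red points are listed keratins and grey points other genes. KRT80, KRT7, KRT86 and KRT81 lie above the 37 other genes, whose differences reach at most 0.47 and 0.93.

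Few other keratins were measured. Of 45 further keratin genes, 4 were listed, namely the type I keratins KRT15, KRT20, KRT32 and KRT34. None of them was called in any comparison. Their library values lay between 17 and 46, apart from 83 for KRT20 in SNU449-Axl-KO-Rego replicate 2. At levels this near the minimum of the scale, the lack of calls cannot show that these 4 genes were unchanged. In SNU449 their differences ranged from -0.52 to -0.11, and KRT34 (-0.52, adjusted p = 0.084) was called without the replicate block (adjusted p = 0.0222). KRT34 was also called without the block between the control groups (-0.44, adjusted p = 0.0455, against 0.144 with it). The keratin-like gene KRT222 fell by 0.76 in SNU449-Rego (adjusted p = 0.0357). The hair keratin-associated gene KRTAP2-3 fell by 1.42 in SNU449-Axl-KO-Rego against its control (adjusted p = 0.00708). KRT222 had solved means of 22.1 normalized counts in SNU449-ctrl and 1.86 in SNU449-Rego. Those of KRTAP2-3 were 59.9 in SNU449-Axl-KO-ctrl and 5.19 in SNU449-Axl-KO-Rego. The lower group was thus near the minimum of the scale for both genes, which limits these calls.

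Keratin filaments are anchored in desmosomes and hemidesmosomes by linker proteins, of which 14 of 16 on the list were tested. In SNU449-Rego against SNU449-ctrl 3 were called higher and 1 lower, beside 4.31% and 3.5% of all genes. The plakin PPL rose by 1.63 (adjusted p = 0.00062), the junction protein JUP by 1.51 (adjusted p = 0.00385) and the armadillo protein PKP4 by 0.85 (adjusted p = 0.00743), and the periplakin-binding protein KAZN fell by 1.23 (adjusted p = 0.00176). In SNU449-Axl-KO cells 3 were called higher with resistance, beside 2.54% of all genes. These were the desmosomal linker DSP by 3.0 (adjusted p = 1.33e-06), PPL by 1.45 (adjusted p = 0.00338) and the desmosomal membrane protein PERP by 0.79 (adjusted p = 0.036). DSP had solved means of 13.2 normalized counts in SNU449-ctrl, 0 in SNU449-Rego and 7.82 in SNU449-Axl-KO-ctrl, against 213 in SNU449-Axl-KO-Rego. Outside the last group DSP was near the minimum of the scale, and all its calls are read with this limit. PPL had solved means of 2.35 in SNU449-ctrl and 15.1 in SNU449-Axl-KO-ctrl, against 61 in SNU449-Rego and 93.2 in SNU449-Axl-KO-Rego. KAZN had 60.9 in SNU449-ctrl, against 7.69 in SNU449-Rego, 9.17 in SNU449-Axl-KO-ctrl and 2.89 in SNU449-Axl-KO-Rego. PPL was thus listed mainly through the resistant groups and KAZN mainly through SNU449-ctrl, which limits their calls in all comparisons.

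Between the control groups 1 linker was called higher without Axl, JUP by 1.17 (adjusted p = 0.0234), and 2 lower, KAZN by -1.26 (adjusted p = 0.00184) and PERP by -0.80 (adjusted p = 0.0221), beside 4.03% and 3.43% of all genes. Between the resistant groups DSP was the 1 linker called, higher by 2.92 without Axl (adjusted p = 1.4e-06), beside 2.44% of all genes called higher. In the tables of the pair of groups DSP differed by 1.96 with resistance in SNU449-Axl-KO and by 1.92 between the resistant groups. Of 15 other intermediate filament genes 9 were tested. The lamin LMNB1 fell by 0.87 in SNU449-Rego (adjusted p = 0.0374), and vimentin (VIM) was called in no comparison. The neural filament gene NES rose without Axl by 1.39 in control cells (adjusted p = 0.000792) and by 1.08 in resistant cells (adjusted p = 0.00852). NES had solved means of 3.79 normalized counts in SNU449-ctrl and 0 in SNU449-Rego, against 55.5 in SNU449-Axl-KO-ctrl and 35.4 in SNU449-Axl-KO-Rego. It was thus listed mainly through the groups without Axl, so that its calls are no independent support for a difference. The calls of LMNB1, PERP, JUP without Axl, PKP4 in SNU449 and KRT222 were each lost without at least 1 library, as were those of NES between the resistant groups (SNU449-Axl-KO-Rego replicate 2, adjusted p = 0.0963) and of KRTAP2-3 (SNU449-Axl-KO-Rego replicate 1, adjusted p = 0.0666).

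Markers of cell types were sparse. Of 8 hepatocyte markers 2 were listed, AFP and APOA1. AFP was higher by 0.67 in SNU449-Axl-KO-ctrl than in SNU449-ctrl (adjusted p = 0.0297). This call was lost without any 1 of the 6 libraries of these groups (adjusted p between 0.0547 and 0.113). The solved means of AFP were 0 normalized counts in SNU449-ctrl and SNU449-Rego, 9.91 in SNU449-Axl-KO-ctrl and 7.45 in SNU449-Axl-KO-Rego. AFP was thus listed through the groups without Axl, so that its call is no independent support for a difference. None of 5 epithelial markers was listed, 1 of 6 keratinocyte markers was (SFN, called in no comparison), and all 5 mesenchymal markers were listed. Of these, the matrix protein FN1 was called in every comparison, with -2.24 (adjusted p = 0.000686) in SNU449-Rego against control, 2.47 (adjusted p = 0.000544) in SNU449-Axl-KO-Rego against its control, -2.25 (adjusted p = 0.000867) between the control groups and 2.46 (adjusted p = 0.000489) between the resistant groups. The values of FN1 in SNU449-Axl-KO-Rego moved to 1.85 without replicate 2 of that group. The other mesenchymal markers, VIM, ZEB1, CDH2 and TWIST1, were called in no comparison and did not all share the direction of FN1. VIM and ZEB1 differed by 0.24 and 0.38 in SNU449-Rego against control, VIM and CDH2 by -0.40 and -0.66 in SNU449-Axl-KO-Rego against its control, and VIM and TWIST1 by 0.27 and 0.31 between the control groups. Between the resistant groups VIM, CDH2 and ZEB1 differed by -0.38, -0.27 and -0.05, while TWIST1, like FN1, was higher without Axl (0.68). The part of these markers in the keratin differences was not tested. In these bulk samples, a larger share of keratin-positive cells and more keratin RNA per cell cannot be told apart.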

How the data were processed

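RNA of 12 libraries (3 for each of 4 groups) was sequenced by the authors from the 3′ end with QuantSeq. According to the methods and the submitters' processing notes, reads were trimmed with cutadapt 4.0, aligned to GRCh38 with STAR 2.5.3a and counted per gene of GENCODE release 40, weakly expressed genes were removed, and DESeq2 comparisons took the preparation date as a further term. The library values were deposited as whole-number scores, read here as 2 raised to the variance-stabilized and batch-corrected level, rounded, made separately for each table. The signal deposited per gene is the authors' mean normalized count over the libraries of a table, and these means summed to between 4.16e+06 and 4.92e+06 per table. The tables also hold the authors' fold changes and p-values, which were not used. The depth per library is unknown, and no interval that needs it is given.

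The table over 12 libraries that compares the backgrounds was analysed on the log2(value + 1) scale by a linear model of group and replicate number (limma 3.58.1 under R 4.3.3, moderated with a mean-variance trend), leaving out 32 spike-in RNAs. Adjustment was by Benjamini-Hochberg over all 15601 genes, with calls under 0.05. A fold is on the log2(value + 1) scale. The study's methods correct for preparation date, which no label or header gives per library. The replicate number was used as a block in its place: the mean of a replicate number deviated from that of all libraries by a median of only 0.00126, against 0.122 for a library from its group (log2), as removal of an effect along these numbers leaves it. The block leaves 6 residual degrees of freedom per gene, against 8 without it.

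The members, gene lists and tests were chosen with earlier results of these data known. KRT7 and KRT81 were therefore left untested wherever SNU449-ctrl enters; for the comparison of the control groups this was decided after their values were seen. Named were all members, other listed keratins, list genes called (at most 4 per comparison), AXL, and for members whose group means span at least 1 log2 unit the 3 most correlated genes. Sequences and exons came from GENCODE release 44 on GRCh38. Alternatives were no block, the table of the pair of groups, the other 12-library table, upper-quartile rescaling, spike-in centring, no pseudocount, a pseudocount of 10, a mean normalized count of at least 10, robust variance moderation and each library left out.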

Additional observations from a re-analysis of the deposited data

Results flagged for a closer look

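For KRT86 the limma interaction term was -1.41 on the log2 scale (SNU449-Axl-KO minus SNU449, SE 0.304, adjusted p = 0.00948). Library values of KRT86 were between 19 and 62. It had 0.42 solved normalized counts in SNU449-ctrl and was listed mainly through the other groups, which limits this call. The interaction term was 3.38 for DSP (SE 0.348, adjusted p = 1.83e-05), which encodes the desmosomal plakin desmoplakin. Outside SNU449-Axl-KO-Rego, DSP was near the minimum of the scale. The term was -1.51 for JUP (SE 0.428, adjusted p = 0.044) and -0.94 for PKP4 (SE 0.263, adjusted p = 0.0409), the calls of which were each lost without 1 of several libraries. For the mesenchymal marker FN1 it was 4.71 (SE 0.516, adjusted p = 3.44e-05).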

How the results depend on the processing

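Of the counts of listed members called, 37 of 44 values under other settings stayed within 1.5 times. In the table of the pair of groups, 1 member was called instead of 2 between SNU449-Rego and SNU449-ctrl and between the control groups, and 2 instead of 1 between the resistant groups. Without the replicate block, 2 instead of 0 were called between the SNU449-Axl-KO groups and 3 instead of 1 in the interaction, and with spike-in centring 1 was called between the SNU449-Axl-KO groups (KRT8, 0.83) and 4 instead of 2 between the control groups. Since an effect along the replicate number had been removed from the values, the deviations of same-numbered libraries cannot show whether the numbers pair the samples. Without the block, 13.9% of all genes were called between SNU449-Rego and SNU449-ctrl against 7.81% with it, 9.95% against 4.35% between the SNU449-Axl-KO groups, 14% against 7.45% between the control groups, 9.63% against 4.37% between the resistant groups and 11.7% against 5.87% in the interaction.

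When 1 library was left out, the counts ranged from 1 to 2 in SNU449, from 0 to 1 in SNU449-Axl-KO, from 1 to 2 between the control groups and from 1 to 2 in the interaction, and the count between the resistant groups was 1 each time. Spike-in centring moved the median of all genes by 0.137 between the SNU449-Axl-KO groups, by 0.202 between the control groups, by 0.292 between the resistant groups and by less than 0.1 in the others. It turned the sign between the resistant groups of KRT7 (0.10), KRT10 (0.03) and KRT86 (0.15) and of the interaction of KRT18 (0.06), none of which was called. With this centring KRT80 (1.42, adjusted p = 0.0206) and KRT10 (0.75, adjusted p = 0.0457) were called between the control groups. The cause of these moves was not tested.

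The sign also turned for members that were not called when 1 library was left out. In SNU449, KRT8 ranged from -0.37 to 0.13 and KRT18 from 0.00 to 0.57. In SNU449-Axl-KO, KRT7 ranged from -0.07 to 1.37, KRT18 from -0.02 to 0.45, KRT80 from -0.03 to 0.93 and KRT81 from -0.14 to 0.48. Between the resistant groups, KRT7 ranged from -0.70 to 0.18, KRT18 from -0.05 to 0.52, KRT81 from -0.25 to 0.69 and KRT86 from -0.32 to 0.17, and in the interaction KRT18 ranged from -0.34 to 0.24. The untested rises in SNU449 ranged from 4.10 to 4.98 for KRT7 and from 4.19 to 5.18 for KRT81, and were 3.67 and 4.12 in the table of this pair. Between the control groups KRT7 was at 3.07 in the table of the pair, and AXL between the resistant groups at -3.49. Depth per library is unknown, and levels of KRT86 and of KRT7 and KRT81 in SNU449-ctrl lie near the minimum of the scale.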
